A study of Mus musculus with 5 samples.

Results

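The genes described here encode G-protein coupled receptors and the proteins that carry or end their signals in mouse mesenchymal stem cells, the connective-tissue progenitor cells also called stromal cells. They were taken from the deposited expression table by symbol, as receptors of the Gpr, Gprc and Adgr families, adrenergic, lysophosphatidic acid, sphingosine-1-phosphate, endothelin, thrombin and prostaglandin E receptors, subunits of the G proteins (Gna, Gnb, Gng), regulators of G-protein signalling (Rgs) and adenylyl cyclases (Adcy). The rule selected 92 of the 12621 genes of the table. No expression value entered it, although it was chosen with earlier results of these data known. These were 14 receptors named by their ligand, 25 Gpr or Gprc genes, 13 adhesion receptors, 11 alpha subunits, 11 beta or gamma subunits, 11 Rgs genes and 7 adenylyl cyclases.

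Messenger RNA was sequenced from 2 wild-type libraries and 3 libraries of cells with a knockout of TSG-6, the secreted hyaluronan-binding protein encoded by Tnfaip6. Both groups carried the strain label Balb/c (C.129S6), and no treatment, time or age was given. The columns were named C1 and SE for wild-type libraries and C1, C2 and SE for knockout ones, with no explanation of C and SE. Nothing in the labels ties the libraries to separate animals or cultures, and the design text counts 2 biological replicates for each cell type although 3 knockout samples are listed, so the p-values measure only the spread between these libraries.

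Reads recovered from the deposited values, summed over the genes of the table, ran from 13605555 to 26658725 per library. Levels are given as normalised counts: CPM with library sizes adjusted by the trimmed mean of M-values (TMM). Tnfaip6 itself stood at 6.04 and 3.21 in wild-type C1 and SE and at 1.65, 2.38 and 1.36 in knockout C1, C2 and SE (log2 fold change -1.13 ± 0.37 SE, adjusted p = 0.0578), so it was lower in each knockout library but did not pass the threshold of 0.05. The labels do not give the deleted stretch of the gene, so the remaining reads cannot check the labels. Of 11 mesenchymal markers listed, 9 had a row: Cxcl12 was higher in the knockout, Nt5e, Cd44 and Ly6a were lower, and the other 5 were not called. Thy1 and Lepr were not analysed here. The summed level of the 9 was 2371 to 2705 over the wild-type libraries and 11067 to 15745 over the knockout ones, a rise that came from Cxcl12 alone, at 115 to 120.0 and then 8179 to 14071. The other 8 summed to 2257 to 2585 over the wild-type libraries and 1674 to 2887 over the knockout ones, and those ranges overlap. Itgb1 was the largest part of that sum in every library, at 1047 and 1335 against 1113, 1035 and 1431. Beneath the sum, Nt5e, Cd44 and Ly6a were 145-fold, 9.89-fold and 9.59-fold lower, and Pdgfrb, not called, went from 49.04 and 145 to 239.8, 239.5 and 860. The 3 mesothelial and epithelial markers with a row, Msln, Krt18 and Krt19, were all lower in the knockout and summed to 321 to 368 over the wild-type libraries and 2.51 to 5.88 over the knockout ones. In bulk samples of this kind, fewer cells of a type and less RNA per cell cannot be told apart, and the part of cell makeup in the results was not tested.

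A G-protein coupled receptor is a membrane protein that, when bound by its ligand, exchanges GDP for GTP on the alpha subunit of a heterotrimeric G protein and so releases the alpha subunit and the beta-gamma pair. Alpha subunits of the Gs class stimulate adenylyl cyclases to make cyclic AMP, those of the Gi class inhibit them, Gq activates phospholipase C beta, and the G12/13 class acts on the cytoskeleton. Rgs proteins end the signal by speeding GTP hydrolysis on the alpha subunit. In mesenchymal stromal cells, sphingosine-1-phosphate and lysophosphatidic acid receptors are known for their effects on migration and cell shape, and cyclic AMP signalling for its part in differentiation.

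Upstream sequences are shown for 3 pairs of genes as examples. The sphingosine-1-phosphate receptors S1pr2 and S1pr3 moved in opposite directions, as did the endothelin receptors Ednrb and Ednra. The regulators Rgs4 and Rgs5 lie close together on chromosome 1 and both rose. Each run is the 250 bases before the RefSeq start of transcription (GRCm38.p6), written 5′ to 3′ in the direction of the gene, and capitals mark CpG dinucleotides.
S1pr2, chr9:20976794-20977043, minus strand: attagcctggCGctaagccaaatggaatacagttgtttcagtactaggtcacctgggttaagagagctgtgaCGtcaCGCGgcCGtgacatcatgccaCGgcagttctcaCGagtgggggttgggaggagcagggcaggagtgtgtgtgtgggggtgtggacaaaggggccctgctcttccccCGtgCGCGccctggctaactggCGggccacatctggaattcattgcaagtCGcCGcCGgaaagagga
S1pr3, chr13:51408368-51408617, plus strand: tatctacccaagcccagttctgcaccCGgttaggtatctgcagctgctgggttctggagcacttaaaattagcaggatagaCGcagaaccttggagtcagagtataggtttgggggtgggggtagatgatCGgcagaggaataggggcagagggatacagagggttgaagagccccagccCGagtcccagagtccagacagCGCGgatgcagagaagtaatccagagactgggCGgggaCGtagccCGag
Ednrb, chr14:103843702-103843951, minus strand: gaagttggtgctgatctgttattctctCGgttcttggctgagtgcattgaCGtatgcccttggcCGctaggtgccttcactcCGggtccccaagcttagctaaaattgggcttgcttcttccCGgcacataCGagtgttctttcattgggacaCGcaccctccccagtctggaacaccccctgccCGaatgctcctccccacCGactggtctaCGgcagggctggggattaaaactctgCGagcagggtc
Ednra, chr8:77724453-77724702, minus strand: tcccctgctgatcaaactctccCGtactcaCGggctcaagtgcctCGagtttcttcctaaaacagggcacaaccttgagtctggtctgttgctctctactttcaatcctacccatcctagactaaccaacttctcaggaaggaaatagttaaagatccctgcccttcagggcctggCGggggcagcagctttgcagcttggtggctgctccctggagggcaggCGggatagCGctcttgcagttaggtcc
Rgs4, chr1:169747643-169747892, minus strand: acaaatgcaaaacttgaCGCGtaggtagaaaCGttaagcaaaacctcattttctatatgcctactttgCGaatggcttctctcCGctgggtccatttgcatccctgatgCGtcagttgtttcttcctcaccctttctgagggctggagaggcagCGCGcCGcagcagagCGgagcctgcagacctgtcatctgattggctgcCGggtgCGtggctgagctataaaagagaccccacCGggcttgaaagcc
Rgs5, chr1:169655251-169655500, plus strand: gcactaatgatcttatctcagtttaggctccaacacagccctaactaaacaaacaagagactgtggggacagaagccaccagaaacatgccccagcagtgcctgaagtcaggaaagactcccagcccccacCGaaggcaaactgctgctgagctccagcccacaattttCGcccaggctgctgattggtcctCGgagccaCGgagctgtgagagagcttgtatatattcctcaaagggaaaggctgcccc

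S1pr2 had 14 CpG dinucleotides in this window and S1pr3 9, Ednrb 11 and Ednra 6, and Rgs4 13 and Rgs5 4. The full cyclic AMP response element, TGACGTCA, which reads the same on both strands, was found in the S1pr2 window alone among the 70 of the 92 genes with an entry, 181 bases before the start. That is 1.43% of the 70, against 3.09% of 9390 tested genes and 1.77% of all 27025 genes with such windows. The median number of CpG dinucleotides, in the window richest in them where a gene had several, was 8 for the 20 members with an entry that were higher in the knockout, 19.5 for the 18 that were lower and 20.5 for the 32 not called. Over all tested genes the same medians were 13, 18 and 18. These counts are descriptions of the letters in the windows. The S1pr3 start is a RefSeq start whose first transcribed bases were not found in a GENCODE transcript, and the Ednrb window lies inside an intron of a longer GENCODE transcript of that gene.

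All 92 genes passed the filter on low values, and 29 were higher and 22 lower in the knockout, with 41 not called, by limma on log2 of the value plus 0.5 with Benjamini-Hochberg adjustment over 12484 genes. In percent, 31.5% were higher against 17.2% of all tested genes, and 23.9% were lower against 17.1%, so 55.4% changed either way against 34.3%. In 50 of the 51 called genes the fold change on the log2 scale was at least 2-fold, as it was in 3800 of the 4279 called among all tested genes. The knockout libraries lay wholly above the wild type for 39 genes and wholly below for 30, which is 75.0% of the 92 against 58.8% of all tested genes. Fold changes on the log2 scale had a median of 0.13, against -0.09 over all genes, and the median size regardless of sign was 1.33 against 0.71. Of the 47 members with a mean of at least 10, 11 were higher and 10 lower. That is 44.7%, against 30.4% of all tested genes at that level. Of the 45 below 10, 18 were higher and 12 lower. The share over all tested genes below 10 was not counted, so these calls have no comparison. In 23 members every library of a group stood under 1, and 22 of those were among the 51 calls. Such genes passed the filter through their other group alone, so their share of calls is no measure of how often members change. The shares of calls given above and those by role below include such genes, and so carry the same limit. By role, the share called was 64.3% of the receptors named by ligand, 44.0% of the Gpr and Gprc genes, 76.9% of the adhesion receptors, 27.3% of the alpha subunits, 54.5% of the beta and gamma subunits, 72.7% of the Rgs genes and 57.1% of the cyclases, against 34.3% of all tested genes. Counts moved with the wild-type libraries, and fewer members were called when either was left out. In each case 83 members were fitted, and 77 without both SE libraries. The remaining wild-type library was then assumed to vary like the knockout. How the calls over all tested genes moved in those fits was not counted.

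**Figure D1:**
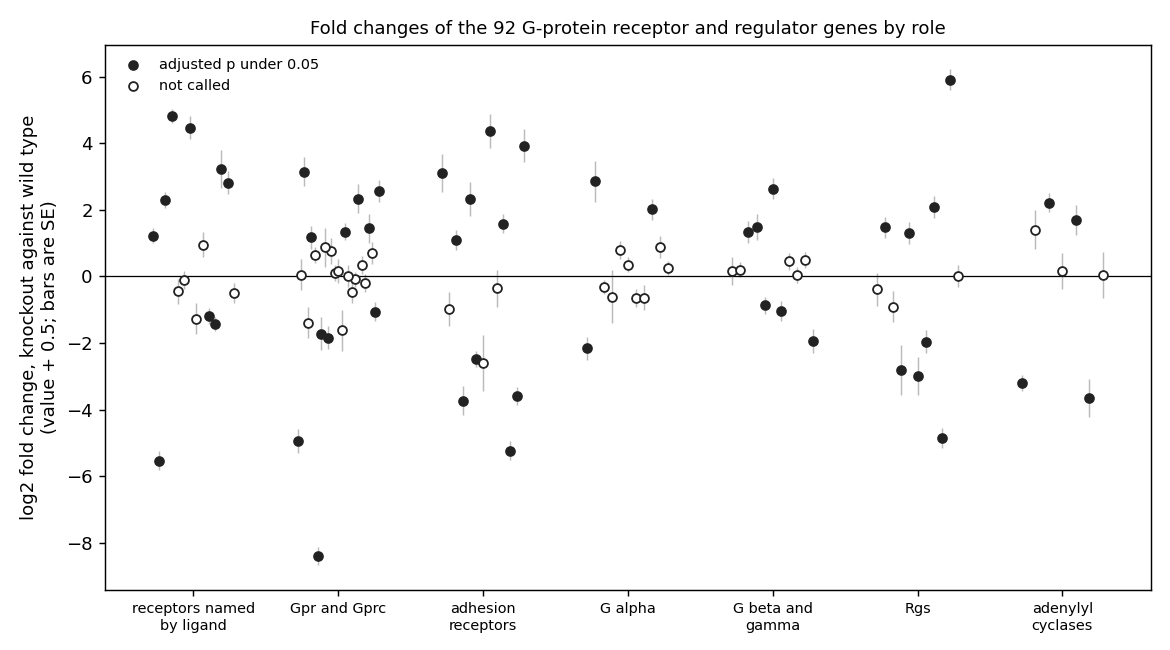
Log2 fold change of each of the 92 genes, knockout against wild type on log2(value + 0.5), by role, with bars of 1 SE from limma and filled points for an adjusted p under 0.05. Each role holds genes on both sides of 0, from -8.39 for Gpr149 to 5.91 for Rgs4, and the alpha subunits have the fewest filled points for their number, 3 of 11.

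Of the 14 receptors named by a known ligand, 6 were higher in the knockout, 3 lower and 5 not called. The 3 sphingosine-1-phosphate receptors of the table all changed: S1pr3 and S1pr1 rose and S1pr2 fell. S1pr3 (chromosome 13, 51408639 to 51422797), a receptor able to couple to several classes of G protein, had normalised counts of 6.69 and 6.32 in wild-type C1 and SE and 178, 199 and 215 in knockout C1, C2 and SE. The groups were far apart, with close agreement within each, and the gene was 30.3-fold higher (log2 fold change 4.82 ± 0.22 SE, adjusted p = 6.65e-05). S1pr1, the Gi-coupled receptor best known from lymphocyte exit and vessel growth, stood at 97.96 and 87.3 for the wild type and 243, 234 and 178 for the knockout, 2.36-fold higher (log2 fold change 1.22 ± 0.23 SE, adjusted p = 0.00879). For S1pr2 (chromosome 9, 20962361 to 20976781), known for coupling to G12/13, the levels were 109 and 137 against 57.1, 46.6 and 56.9, 2.295-fold lower (log2 fold change -1.19 ± 0.23 SE, adjusted p = 0.00969), and no knockout library reached the lower wild-type value.

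Per kilobase of exon, S1pr1 gave the highest level of the 3 in every library, with group means of 30.4 (wild type) and 71.7 (knockout). The order of the other two turned round. S1pr3 made up 3.17% and 2.99% of the summed level per kilobase of the 3 receptors in wild-type C1 and SE and 31.4%, 35.1% and 42.3% in the knockout libraries. S1pr2 went the other way, from 28.8% and 36.4% to 5.65%, 4.603% and 6.27%.

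The endothelin receptors also exchanged places. Ednrb (chromosome 14, 103814625 to 103844402), the type B receptor, had 26.4 and 19.4 in the wild type and no read in any of the 3 knockout libraries, against 1025 wild-type reads. It was therefore at least 146-fold lower, with 3 reads in each knockout library taken as the floor (log2 fold change -5.53 ± 0.28 SE, adjusted p = 7.63e-05). Ednra (chromosome 8, 77663031 to 77724464), the type A receptor that raises calcium in smooth muscle, stood at 0.892 and 1.45 against 8.79, 11.05 and 14.1, 9.67-fold higher (log2 fold change 2.82 ± 0.34 SE, adjusted p = 0.00153). All knockout values of Ednra were above both wild-type values. Of the summed level of both receptors per kilobase, Ednra took 2.57% and 5.51% in the wild-type libraries and all of it in the knockout ones. Edn1, the gene of their ligand endothelin-1 and a member of a list of ligands, was at 1.26 and 1.24 for the wild type and 38.5, 19.4 and 40.5 for the knockout, 26.2-fold higher (log2 fold change 4.18 ± 0.40 SE, adjusted p = 0.000593).

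Adrenergic receptors bind adrenaline and noradrenaline. Adrb3, the beta-3 receptor best known from fat cells, had only 4 wild-type reads, or values of 0.0405 and 0.155, against 9.87, 17.8 and 11.6 in the knockout. That is 134-fold higher (log2 fold change 4.47 ± 0.35 SE, adjusted p = 0.000302), with a fold of 84.3 without wild-type C1 and 323 without wild-type SE. The 7 adipocyte markers (Plin1, Fabp4, Lpl, Cebpa, Pparg, Adipoq and Cidec) were all higher in the knockout too, with a summed level of 51.1 to 79.2 over the wild-type libraries and 4387 to 10581 over the knockout ones and no wild-type read for Cidec. Most of that sum was Lpl, and the other 6 summed to 9.89 to 18.3 over the wild-type libraries and 730.0 to 1916 over the knockout ones. Their part in the Adrb3 result was not tested. Adra1b, a Gq-coupled alpha-1 receptor, had no read for the wild type and 1.83, 1.97 and 2.08 for the knockout, at least 14.2-fold higher (log2 fold change 2.30 ± 0.24 SE, adjusted p = 0.000876). The related Adra1d was 12.2-fold higher (log2 fold change 3.22), at 0.851 and 2.49 against 14.1, 12.1 and 34.9, where the SE library was the highest of its group in both groups. Its fold was 23.9 without wild-type SE and 7.87 without knockout SE.

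Lpar1, the main lysophosphatidic acid receptor of these cells by level per kilobase, fell from 256 and 208 to 92.6, 80.9 and 82.9, 2.72-fold lower (log2 fold change -1.43 ± 0.21 SE, adjusted p = 0.00351). The lowest wild-type value was more than any knockout value. It still made up 70.4%, 79.5% and 74.3% of the summed level per kilobase of Lpar1, Lpar4 and Lpar6 in the knockout, against 85.6% and 85.4% in the wild type. F2r, the thrombin receptor PAR1, had the highest mean of the 14. Its values were 275 and 305 for the wild type and 287, 202 and 327 for the knockout, with overlapping groups and no call (log2 fold change -0.12 ± 0.27 SE, adjusted p = 0.764). Also not called were Lpar4, Lpar6 and Ptger4, the Gs-coupled prostaglandin E receptor EP4, at log2 fold changes of -0.50, -0.44 and 0.95. Among genes of this role that could be fitted without a wild-type library, calls depended on such a library for S1pr1 and S1pr2. The call ended for S1pr1 without wild-type C1 (1.30) or wild-type SE (1.14) and for S1pr2 without wild-type SE (-1.02), with log2 fold changes in brackets. Ednrb could not be fitted with a wild-type library left out, so its dependence on a single wild-type library is unknown.

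**Figure D2:**
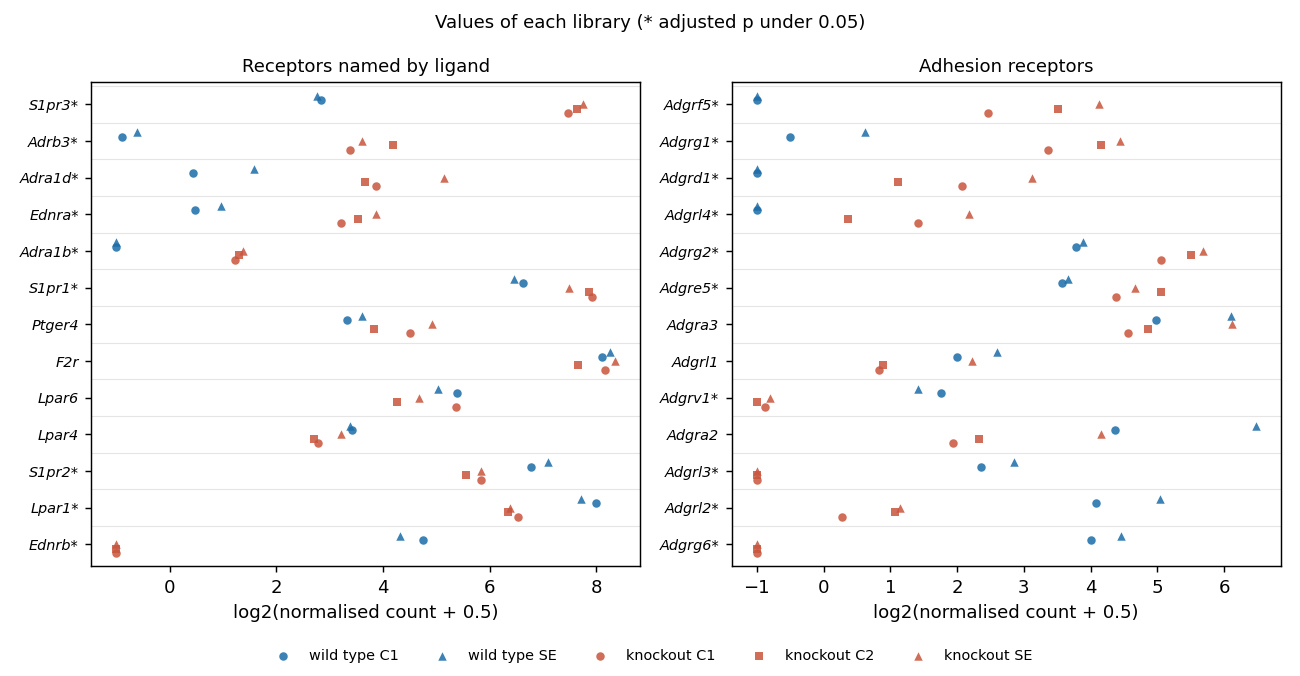
Level of receptors in each library as log2(normalised count + 0.5), receptors named by ligand on the left (1 of the 14 not shown) and adhesion receptors on the right, blue for wild type and red for knockout. S1pr3 moves from below 3 to above 7 on this axis, and Ednrb, Adgrl3 and Adgrg6 sit at the axis value of 0 reads in all 3 knockout libraries.

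Many Gpr genes encode orphan receptors, those without an agreed ligand, and a few share the name without being established receptors, such as Gpr89, a regulator of Golgi pH. Of the 25 Gpr and Gprc genes, 6 were higher in the knockout, 5 lower and 14 not called. Gpr149 (chromosome 3, 62529077 to 62605140), an orphan receptor, had the largest log2 fold change of the 92 genes. It was at 162 and 173 in the wild type, from 7349 reads, and had no read in the knockout. It was at least 1072-fold lower (log2 fold change -8.39 ± 0.27 SE, adjusted p = 4.34e-05). Gprc5a, an orphan of class C induced by retinoic acid, stood at 100.2 and 66.98 against 2.82, 1.44 and 2.51, 37.1-fold lower (log2 fold change -4.94 ± 0.37 SE, adjusted p = 0.000256). Both genes were abundant in the wild type and low or without reads in each knockout library.

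Gpr176, an orphan receptor described in the circadian clock of the brain, had the highest mean of the 25. It rose from 37.005 and 60.1 to 261, 223 and 389.8, 5.998-fold higher (log2 fold change 2.57 ± 0.33 SE, adjusted p = 0.002), and its lowest knockout value was well above both wild-type values. Gpr146 was 10.7-fold higher at 0.932 and 2.43 against 12.7, 22.96 and 18.5 (log2 fold change 3.14 ± 0.43 SE, adjusted p = 0.00252), or 19.4 without wild-type SE. The other rises were of low genes. Gpr157 was at 0.405 and 0.311 against 1.88, 1.702 and 1.43 (log2 fold change 1.34 ± 0.26 SE, adjusted p = 0.00934), 4.67-fold higher. The groups of Gpr157 did not overlap.

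Gpr35 was 3.99-fold higher and Gpr18 had 3 wild-type and 55 knockout reads, a ratio of read rates of 13.1 (4.25 to 65.4) with its exact 95% interval for counting error only. Lower in the knockout were Gpr39, a zinc-sensing receptor, 3.45-fold lower (5.79 without knockout C1), Gpr3, which stimulates adenylyl cyclase without a ligand, 3.94-fold lower, and Gpr85, 12.95-fold lower (7.58 without wild-type C1). Of 12 markers of macrophages and other blood cells, cells in which Gpr18 and Gpr35 are also known, 4 had a row: Lyz2 and Csf1r were higher in the knockout, Cd14 lower and Cd68 not called. Their summed level was 66.9 to 94.4 over the wild-type libraries and 50.1 to 59.1 over the knockout ones. Cd14 led the sum in the wild type. Without it the sum was 3.11 to 5.19 over the wild-type libraries and 38.8 to 46.8 over the knockout ones. Lyz2 alone made up most of that knockout sum, at 34.2, 24.4 and 32.2 in C1, C2 and SE. The part of these markers in the Gpr18 and Gpr35 results was not tested. The 14 genes not called ran from -1.61 to 0.87 in log2 fold change, and among them Gpr107, Gpr108 and Gpr180 were abundant with overlapping groups. Gpr137b (log2 fold change -1.39 ± 0.46 SE, adjusted p = 0.0586) and its near-identical copy Gpr137b-ps (-0.45) are uncertain, since reads may be split between them. Calls were lost, with the log2 fold change in brackets, for Gpr157 without wild-type C1 (1.42) or wild-type SE (1.26), Gpr18 without wild-type C1 (1.21) or wild-type SE (1.13), Gpr3 without knockout C1 (-0.87), Gpr35 without wild-type C1 (1.70), wild-type SE (1.19) or knockout C2 (1.06) and Gpr39 without wild-type C1 (-1.51), wild-type SE (-1.92) or knockout C2 (-1.55). With all 5 libraries, the call of Gpr3 was also lost in edgeR and DESeq2, that of Gpr39 in edgeR, and those of Gpr18 and Gpr35 with a pseudocount of 1 and under quantile normalization. Without both SE libraries Gpr18, Gpr35 and Gpr157 lost their calls. Gpr149, Gpr3 and Gpr85 could not be fitted with a wild-type library left out.

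**Figure D3:**
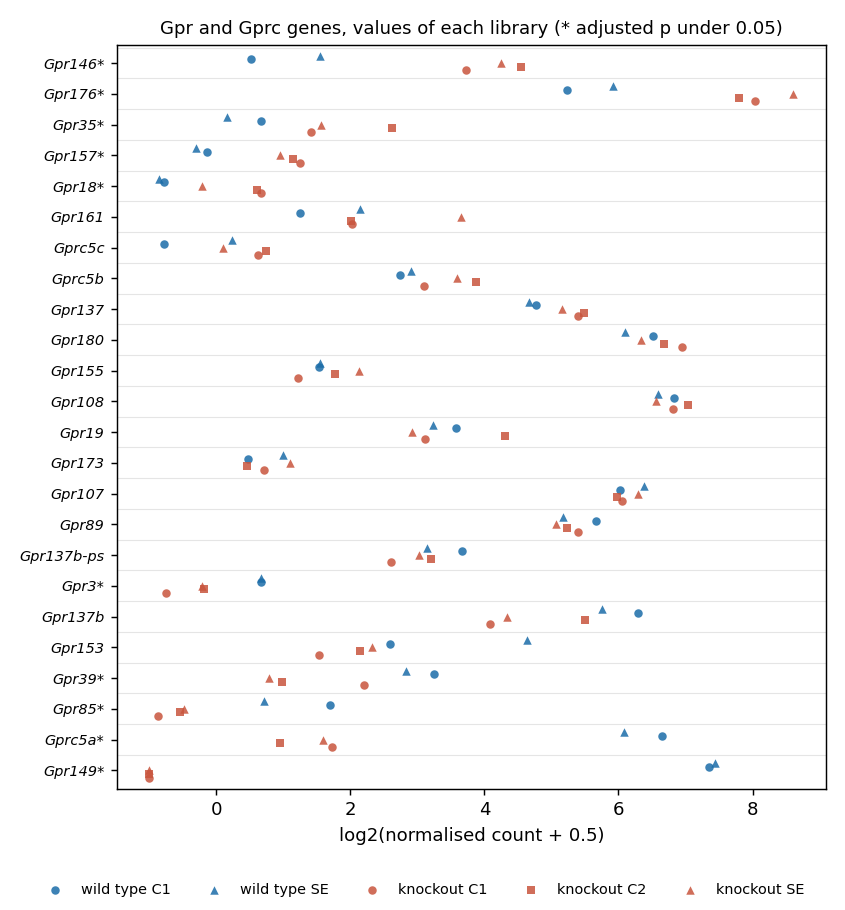
Level of Gpr and Gprc genes in each library, 1 of the 25 not shown, as log2(normalised count + 0.5), ordered by fold change. At the bottom Gpr149 and Gprc5a fall from above 6 in both wild-type libraries to below 2, and the middle rows show wild-type and knockout points side by side.

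Adhesion receptors have long extracellular parts that bind matrix or neighbouring cells. Of 13, 6 were higher in the knockout, 4 lower and 3 not called. Adgrg6, the receptor known from Schwann cell myelination, had 15.5 and 21.5 in the wild type and no knockout read, at least 118-fold lower (log2 fold change -5.23 ± 0.28 SE, adjusted p = 8.37e-05). The latrophilin Adgrl3 followed the same course, at 4.62 and 6.68 against no read (at least 36.1-fold lower, log2 fold change -3.60 ± 0.27 SE, adjusted p = 0.000256). Adgrl2, another latrophilin, fell from 16.4 and 32.3 to 0.705, 1.59 and 1.72, 18.2-fold lower (log2 fold change -3.73 ± 0.44 SE, adjusted p = 0.00135). Adgrv1, a very large receptor known from hearing, had 113 wild-type reads and 2 knockout reads, at 2.88 and 2.18 against 0.04702, 0 and 0.0717 (log2 fold change -2.48 ± 0.25 SE, adjusted p = 0.000769). Wild type over knockout, a ratio of read rates of 79.2 (21.4 to 662) resulted, and the ratio of mean values was 42.6 without knockout C2 and 107 without knockout SE. None of the 4 had a knockout library near its wild-type range. Adgrg6, Adgrl3 and Adgrv1 could not be fitted with a wild-type library left out.

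In 4 of the 6 rises the wild type had few reads or none. Adgrf5, known from lung surfactant control, had no wild-type read and 5.03, 10.9 and 16.98 in the knockout, at least 79.2-fold higher (log2 fold change 4.37 ± 0.50 SE, adjusted p = 0.00122). Adgrg1, which binds collagen and transglutaminase and is known from cortical development, was at 0.203 and 1.04 against 9.73, 17.2 and 21.3, 25.96-fold higher (log2 fold change 3.93 ± 0.49 SE, adjusted p = 0.00165), or 15.5 without wild-type C1 and 79.3 without wild-type SE. Adgrd1 and Adgrl4 also had no wild-type read and were at least 32.8-fold higher and at least 16.8-fold higher. Adgrg2 (3.11-fold higher) and Adgre5, also called CD97 (2.204-fold higher), were expressed in both groups. Adgrl4 is best known from endothelial cells. Of 8 endothelial markers Vwf alone had a row; it was not called and stood at 0.0405 and 0 against 0.376, 1.13 and 3.798, and its part in the Adgrl4 result was not tested.

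Among the latrophilin genes Adgrl1 to Adgrl4 the mixture changed. Of their summed level per kilobase, Adgrl2 gave 63.4% and 68.98% for the wild type and 7.42%, 25.2% and 8.18% for the knockout. Adgrl4 gave none and then 70.5%, 39.04% and 59.1%. The knockout shares are of low levels: Adgrl4 stood at 0.472, 0.173 and 0.875 per kilobase in knockout C1, C2 and SE. Adgrl2 had fallen from 1.16 and 2.27 to 0.0497, 0.112 and 0.121 per kilobase. Adgra3 had the highest mean of the role and was not called, at 30.97 and 68.3 against 23.1, 28.6 and 68.9 (log2 fold change -0.36 ± 0.55 SE, adjusted p = 0.652), with the SE library high in each group. Adgra2, a coreceptor of Wnt signalling, was lower in each knockout library at 3.34, 4.502 and 17.3 against 20.02 and 88.1 but missed the threshold (log2 fold change -2.61 ± 0.84 SE, adjusted p = 0.053). Its SE library was the higher one in each group, and within a suffix the log2 difference was -2.23 for C and -2.31 for SE. It was called in 6 of 17 alternatives, among them quantile normalization, DESeq2 and the fits without wild-type C1, without knockout SE and without both SE libraries. Adgrl1 was not called (-0.98). The call ended for Adgre5 without wild-type C1 (1.04), wild-type SE (1.13) or knockout C2 (0.90), Adgrg2 without wild-type C1 (1.53) and Adgrl4 without wild-type C1 (2.32) or wild-type SE (2.32), with the log2 fold change in brackets.

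Of 11 alpha subunits, 2 were higher, 1 was lower and 8 were not called. The groups did not overlap for 10 of the 11, against 58.8% of all tested genes. Gnai2, an inhibitory subunit, had the highest measured level of the 11. It took 46.05% and 39.1% of their summed level per kilobase for the wild type and 53.5%, 53.7% and 46.4% for the knockout. Its values of 528 and 470.3 against 671, 673 and 574 did not pass the test (log2 fold change 0.35 ± 0.23 SE, adjusted p = 0.275). The next by level per kilobase was Gnai3 in every library, at 308 and 317 against 269, 227 and 261 and also not called (-0.31). Gnaq (0.89), Gna11 (0.25), Gna12 (-0.61), Gna13 (-0.64), Gnal (0.80) and Gnaz (-0.64) completed the uncalled set, with log2 fold changes in brackets.

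Gnas, the gene of the stimulatory subunit and an imprinted locus with several promoters, fell from 17.96 and 23.98 to 4.66, 3.06 and 5.37, 4.804-fold lower (log2 fold change -2.16 ± 0.35 SE, adjusted p = 0.00458). Its exons overlap those of Nespas and Gm20721 on the opposite strand, and whether reads were counted by strand is not stated. The level of Gnas is therefore uncertain, and so are the order and shares of the alpha subunits, which count it. Gnat2, the alpha transducin of cones, rose from 1.09 and 0.622 to 4.98, 5.79 and 4.08, 5.77-fold higher (log2 fold change 2.02 ± 0.32 SE, adjusted p = 0.00417). Gnao1, a subunit best known from neurons, was at 0.365 and 1.35 against 4.84, 7.11 and 18.6, 11.9-fold higher (log2 fold change 2.86 ± 0.61 SE, adjusted p = 0.0136). That fold was 7.55 without wild-type C1, 27.9 without wild-type SE and 6.99 without knockout SE. Both of these stayed rare among alpha subunits, Gnat2 reaching at most 0.583% and Gnao1 0.513% of the summed alpha level per kilobase. Calls were lost for Gnao1 without wild-type C1 (2.31) and Gnat2 without wild-type SE (1.76).

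Of 4 beta and 7 gamma subunit genes, 3 were higher, 3 lower and 5 not called. Gng11, a gamma subunit, rose from 9.04 and 6.84 to 56.3, 62.9 and 38.2, 6.61-fold higher (log2 fold change 2.63 ± 0.32 SE, adjusted p = 0.00147). The lowest knockout value was several times the higher wild-type one. Of the summed gamma level per kilobase it gave 10.8% and 8.76% for the wild type and 39.9%, 45.2% and 29.9% for the knockout. Gng7 was at 4.13 and 6.58 against 11.4, 14.1 and 22.9, 3.01-fold higher (log2 fold change 1.48 ± 0.40 SE, adjusted p = 0.0298), and Gng8 at 0.648 and 1.19 against 3.95, 2.800 and 2.44, 3.33-fold higher (log2 fold change 1.33 ± 0.33 SE, adjusted p = 0.0235).

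Gng4 fell from 3.65 and 4.299 to 0.329, 1.17 and 0.645, 5.55-fold lower (log2 fold change -1.94 ± 0.36 SE, adjusted p = 0.00828). The falls of 2 beta genes were small: Gnb4 went from 97.5 and 86.8 to 57.9, 53.6 and 40.2, 1.82-fold lower (log2 fold change -0.87 ± 0.25 SE, adjusted p = 0.0358), and Gnb5, which pairs with Rgs proteins of the R7 class, from 39.7 and 34.9 to 20.9, 20.6 and 13.3, 2.04-fold lower (log2 fold change -1.03 ± 0.30 SE, adjusted p = 0.0388). Gnb1 had the highest mean of the role and was not called, at 371 and 290.2 against 490.2, 491 and 415 (log2 fold change 0.50 ± 0.23 SE, adjusted p = 0.147). Gnb2, Gng5, Gng10 and Gng12 were not called either, at log2 fold changes from 0.05 to 0.45. Calls other than that of Gng11 were lost when 1 library was left out, namely Gnb4 without wild-type C1 (-0.79), wild-type SE (-0.96), knockout C1 (-0.98) or knockout C2 (-0.92), Gnb5 without wild-type C1 (-0.94), wild-type SE (-1.12), knockout C1 (-1.14) or knockout C2 (-1.13), Gng4 without wild-type C1 (-2.04) or wild-type SE (-1.83), Gng7 without wild-type C1 (1.17), wild-type SE (1.79) or knockout C2 (1.54) and Gng8 without wild-type C1 (1.052), wild-type SE (1.61), knockout C1 (1.16) or knockout C2 (1.37). The calls of Gnb4 and Gnb5 also ended under quantile normalization and under median-of-ratios scaling, and that of Gng8 under quantile normalization.

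**Figure D4:**
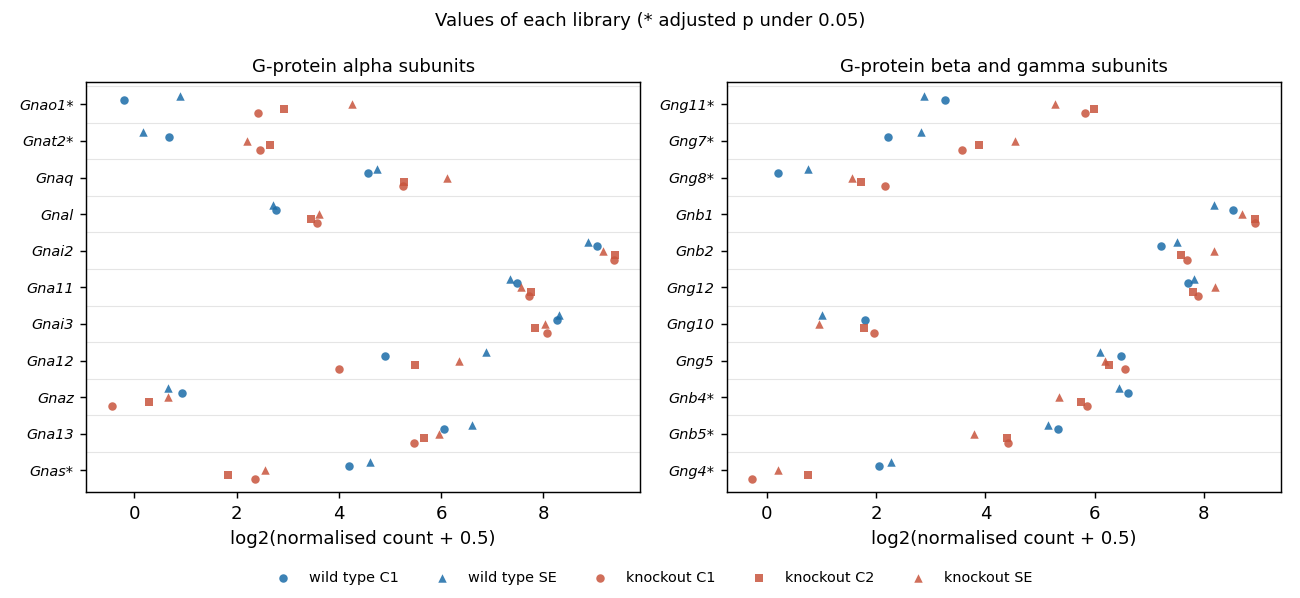
Level of alpha subunits (left) and of beta and gamma subunits (right) in each library as log2(normalised count + 0.5). The abundant subunits Gnai2, Gnai3, Gna11, Gnb1, Gnb2 and Gng12 lie within about 1 unit in all libraries, and Gng11 and Gnas show separate blue and red points.

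Rgs genes changed in opposite directions with large folds, 4 higher, 4 lower and 3 not called of 11. Rgs4 (chromosome 1, 169741477 to 169747642), which acts on Gi and Gq subunits, had 5 wild-type and 2366 knockout reads. Its values were 0.0811 and 0.155 against 35.7, 44.6 and 30.6, 313-fold higher (log2 fold change 5.91 ± 0.31 SE, adjusted p = 8.37e-05), and no wild-type value came near the knockout ones. Rgs5 (chromosome 1, 169655501 to 169695813), its neighbour on chromosome 1 and a marker of pericytes, was low throughout at 0 and 0.104 against 1.65, 1.36 and 2.65 (log2 fold change 2.08 ± 0.32 SE, adjusted p = 0.00377). With 2 wild-type and 108 knockout reads it gave a ratio of read rates of 38.5 (10.4 to 322). The ratio of mean values was 18.2 without wild-type C1, and without wild-type SE no wild-type read was left.

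Of the 9 smooth muscle and pericyte markers, 6 had a row: Acta2, Des, Tagln and Cnn1 were higher in the knockout, Cspg4 was lower and Mcam was not called. They summed to 94.96 to 122 over the wild-type libraries and 3102 to 6605 over the knockout ones, mostly through Acta2. Without it the sums were 30.4 to 74.4 and 58.7 to 149, ranges that overlap. Cspg4 made up most of that wild-type sum, at 27.97 and 70.6 against 0.893, 0.454 and 1.79 in the knockout. Cnn1 and Des were 91.0-fold and 74.6-fold higher, and Tagln had 3 wild-type and 388 knockout reads. The part of these markers in the results for Rgs4 and Rgs5 was not tested. The median log2 fold change of the 25 tested genes on each side was 0.59 around Rgs4 and 0.56 around Rgs5. Rgs11, an R7-class gene, was 5.57-fold higher at 0.162 and 0.466 against 2.26, 1.63 and 1.36 (log2 fold change 1.47 ± 0.31 SE, adjusted p = 0.0134), or 10.8 without wild-type SE, and Rgs3 was 2.56-fold higher (1.31).

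In the other direction, Rgs17 was nearly silent in the knockout. It had 671 wild-type reads and 2 knockout reads, both in C2, at 17.9 and 11.9 against 0, 0.0757 and 0 (log2 fold change -4.85 ± 0.30 SE, adjusted p = 0.00013), with a ratio of read rates of 470.3 (129.7 to 3892), wild type over knockout. Without knockout C2 no knockout read was left, and Rgs17 could not be fitted with a wild-type library left out. Rgs20, of the same RZ class, fell from 5.07 and 3.68 to 0.893, 0.416 and 1.003, 5.67-fold lower (log2 fold change -1.96 ± 0.34 SE, adjusted p = 0.00599). Rgs16, which acts on Gi and Gq subunits, had the highest mean of the 11 and fell from 110.3 and 287 to 14.01, 40.9 and 18.3, 8.14-fold lower (log2 fold change -2.99 ± 0.57 SE, adjusted p = 0.00855), or 4.51 without wild-type SE and 12.3 without knockout C2. The wild-type libraries differed widely for this gene but both exceeded every knockout value. Rgs2, which prefers Gq, was 8.497-fold lower (-2.80), at 56.4 and 13.1 against 2.398, 7.72 and 2.15, or 3.21 without wild-type C1, 13.8 without wild-type SE and 15.3 without knockout C2.

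By level per kilobase, Rgs16 gave 46.6% and 80.5% of the summed Rgs level for the wild type and 10.9%, 28.03% and 18.6% for the knockout, while Rgs4 went from 0.0258% and 0.0329% to 20.99%, 23.1% and 23.4%. Rgs19, not called and with overlapping groups (62.2 and 41.6 against 68.1, 50.5 and 39.3), was the leading Rgs gene per kilobase in the knockout at 55.7%, 36.3% and 41.8%. Rgs10 and Rgs12 were not called, at -0.90 and -0.39. The call was lost for Rgs11 without wild-type C1 (1.20) or wild-type SE (1.74), Rgs2 without wild-type C1 (-1.77) or knockout C1 (-2.58), Rgs20 without wild-type C1 (-1.75), Rgs3 without wild-type C1 (1.56), wild-type SE (1.052), knockout C1 (1.27) or knockout C2 (1.17) and Rgs5 without wild-type C1 (1.95).

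Adenylyl cyclases make cyclic AMP. Of 7, 2 were higher, 2 lower and 3 not called, all at modest levels. Adcy2 had 3.93 and 4.25 in the wild type and no knockout read, at least 26.1-fold lower (log2 fold change -3.20 ± 0.24 SE, adjusted p = 0.000254). It could not be fitted with a wild-type library left out. Adcy7, like Adcy2 and Adcy4 of the class that beta-gamma pairs can stimulate, fell from 10.4 and 18.5 to 0.235, 0.3405 and 1.93, 17.3-fold lower (log2 fold change -3.65 ± 0.58 SE, adjusted p = 0.00442), or 50.2 without knockout SE. Adcy8, stimulated by calcium and calmodulin, rose from 0.243 and 0.104 to 3.104, 2.61 and 2.15, 15.1-fold higher (log2 fold change 2.21 ± 0.28 SE, adjusted p = 0.00187), or 25.3 without wild-type C1. Adcy4 was at 0.0811 and 0.414 against 2.68, 0.832 and 2.58, 8.198-fold higher (log2 fold change 1.69 ± 0.46 SE, adjusted p = 0.0316), or 4.901 without wild-type C1 and 25.1 without wild-type SE. Its call was lost without either wild-type library, at log2 fold changes of 1.36 and 2.02 without C1 and without SE in turn, and also under quantile normalization.

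Adcy3, with the highest mean of the 7, was not called and differed more between C and SE libraries than between groups, at 5.999 and 24.1 against 8.61, 8.85 and 25.4 (log2 fold change 0.04 ± 0.70 SE, adjusted p = 0.971). Adcy6 (0.16) and Adcy9 (1.41) were not called. Of the summed cyclase level per kilobase, Adcy7 gave 35.1% and 27.9% in wild-type C1 and SE and 0.969%, 1.36% and 3.29% in the knockout, and Adcy2 gave 21.2% and 10.3% and then none. Adcy3 took 38.2%, 38.1% and 46.5% in the knockout, the largest share in each of its libraries.

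**Figure D5:**
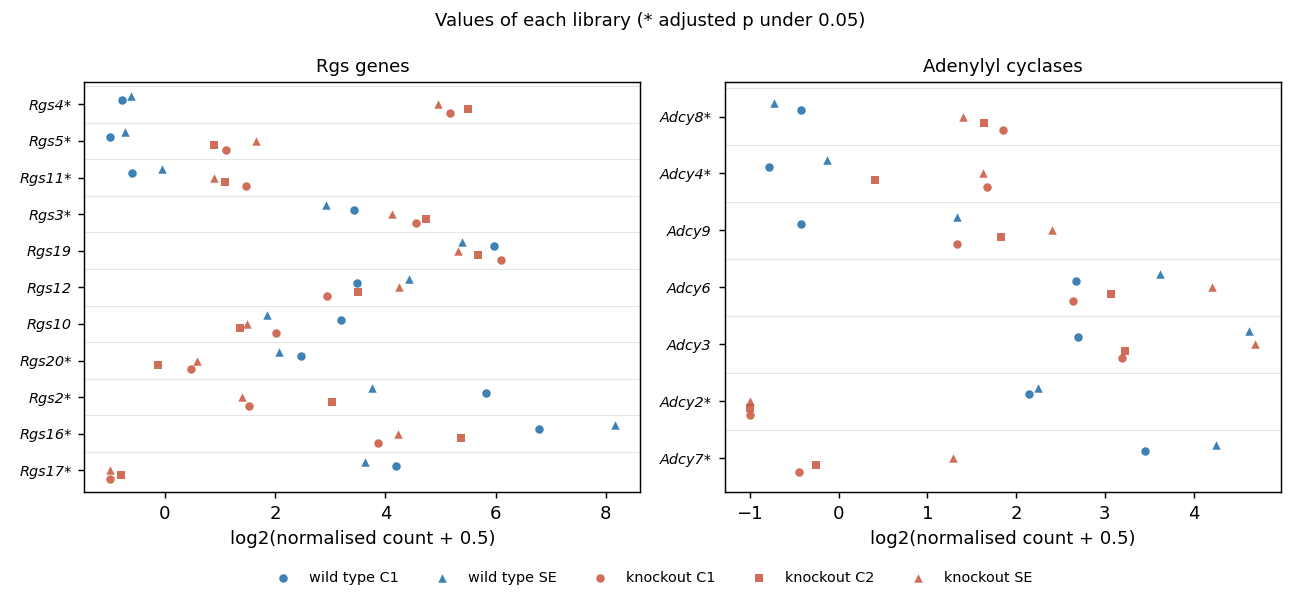
Level of the Rgs genes (left) and adenylyl cyclases (right) in each library as log2(normalised count + 0.5). Rgs4 and Rgs17 change sides, the first from below 0 to about 5 and the second from about 4 to the value of 0 or 2 reads, and Adcy3 shows its SE libraries high in both groups.

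The C and SE libraries gave the same direction for most genes when each pair of groups was compared within a suffix, C1 against the knockout mean of C1 and C2 and SE against SE. The signs matched for 84 of the 92 members, against 87.8% of all tested genes, and for all 51 called members. The 51 were called on these same libraries, so their match was largely fixed in advance and is no separate support. The 8 exceptions were F2r, Gpr108, Gpr155, Gpr19, Gprc5c, Adgra3, Gng10 and Gng5, none of them called. In 6 members, Adra1d, Adgra2, Adgra3, Gna12, Gnao1 and Adcy3, SE exceeded C by more than 2-fold in both groups, and no member showed the reverse. The share of all tested genes with such a difference was not counted.

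Other genes of the pathway were taken from lists of known function. Of 36 tested further G-protein coupled receptors, 11 were higher and 12 lower. Lgr5, the R-spondin receptor and a stem cell marker of the gut, had 0.203 and 0.207 for the wild type and 195, 119 and 356 for the knockout, 1090.5-fold higher (log2 fold change 8.17 ± 0.47 SE, adjusted p = 0.000103). P2ry2, a Gq-coupled receptor for ATP and UTP, fell from 81.4 and 84.7 to 2.92, 4.54 and 2.94, 23.98-fold lower (log2 fold change -4.42 ± 0.31 SE, adjusted p = 0.000195), and the chemokine receptor Cxcr6 from 100.9 and 56.2 to 0.799, 0 and 0.287 (log2 fold change -6.57 ± 0.49 SE, adjusted p = 0.000254). Among 16 receptor kinases, arrestins and helpers, 5 were higher and 4 lower. Ramp3, which changes the ligand choice of calcitonin-type receptors, had 1896 wild-type reads and 1 knockout read (log2 fold change -6.34 ± 0.31 SE, adjusted p = 7.06e-05), Gprin3 was 122-fold higher and Gpsm2, which binds Gi subunits at the spindle, 2.49-fold lower.

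Of 16 cyclic AMP effectors, 2 were higher, 1 lower and 13 not called. Prkar2b, a regulatory subunit of protein kinase A, rose from 156 and 183 to 629.9, 780.2 and 823, 4.38-fold higher (log2 fold change 2.12 ± 0.24 SE, adjusted p = 0.00112), Rapgef4 was 4.45-fold higher, and Crem, a transcription factor of the cyclic AMP response, 2.94-fold lower. Of 12 phosphodiesterases, the enzymes that break cyclic AMP down, 3 were higher and 5 lower. Pde4b fell from 35.1 and 32.3 to 1.88, 1.25 and 1.36, 22.5-fold lower (log2 fold change -4.11 ± 0.30 SE, adjusted p = 0.000236). Pde3b went from 34.4 and 70.5 to 0.329, 0.681 and 1.15, 72.9-fold lower (log2 fold change -5.41 ± 0.45 SE, adjusted p = 0.000372), and Pde1b was 12.03-fold higher. Of 18 effectors of Gq and G12/13, 5 were higher and 13 not called. The higher ones included Plcb4, a phospholipase C beta (3.79-fold higher), the guanine nucleotide exchange factor Arhgef25 (2.47-fold higher) and the calcium channel Itpr2 (3.25-fold higher). Of 18 ligands and ligand-making enzymes, 5 were higher and 5 lower. Ptgs2 and Ptges, which make prostaglandin E2, fell from 689 and 619 to 23.3, 9.34 and 26.4 and from 228 and 221 to 21.9, 27.996 and 16.9, 33.3-fold lower and 10.1-fold lower (adjusted p = 0.000414 and 0.000345). The calls of Arhgef25 (1.15), Crem (-1.18), Plcb4 (1.60) and Rapgef4 (1.59) were lost without wild-type C1, and those of Gpsm2 (-1.24), Itpr2 (1.32) and Rapgef4 (1.19, or 1.26 without both SE libraries) without wild-type SE, with the log2 fold change in brackets. The share called was 63.9% of the further receptors, 56.2% of kinases, arrestins and helpers, 18.8% of cyclic AMP effectors, 66.7% of phosphodiesterases, 27.8% of Gq and G12/13 effectors and 55.6% of ligands and their makers, against 34.3% of all tested genes. Over the lists, median log2 fold changes were -0.02 for the further receptors, -0.19 for kinases, arrestins and helpers, -0.04 for cyclic AMP effectors, -0.29 for phosphodiesterases, 0.42 for Gq and G12/13 effectors and 0.08 for ligands and their makers. All tested genes had a median of -0.09. Several lists also hold genes under 1 in every library of a group, such as Tbxa2r, Pde7b and Spns2. Such genes passed the filter through the other group alone, so the shares called of these lists carry the same limit as those of the members.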

How the data were processed

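Per the labels' protocols, mRNA of mesenchymal stem cells was made into stranded libraries and sequenced as 75-bp single-end reads. STAR 2.5, featureCounts 1.5.2 and edgeR are named in the submitters' processing notes without role or order, and the genome build is not given in the sources used here. The deposited values are a signal, gene read counts scaled by the authors. Whole reads were recovered for 100% of values within 0.02 of a read, and the scale was that of CPM with TMM library sizes. Libraries of a group differed by more than counting noise (chi-square per degree of freedom 62.3 to 220.3), so each counted as 1 sample.

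Genes that reached 1 in no fewer than 2 libraries were tested with limma 3.58.1 (lmFit, eBayes with trend) in R 4.3.3 on log2 of the deposited value plus 0.5, with group as the only term, 3 residual degrees of freedom and adjustment over 12484 genes. Log2 fold changes on this scale understate changes of low genes. A fold given in the text divides the mean deposited value of one group by that of the other. A group with no read was set to a floor of 3 reads in each library, and a group with 1 to 3 reads was compared by read rates (exact 95% interval). Floors and intervals cover counting error only. The 17 alternatives included edgeR 4.0.16 and DESeq2 1.42.0 on recovered reads.

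Members and lists were chosen with earlier results of these data known. In each role, the rule named up to 6 called members with the smallest p-value and the member with the highest mean; other members are given by name and fold, and values shown for S1pr1, S1pr2, Adra1d, Adgra2, Gnai3, Rgs2 and Rgs19 were added after seeing them. Of each list, up to 3 called genes were named. The values of 2 members are not reported here, although the counts include them. Coordinates and exon lengths came from GENCODE M21 (GRCm38), matched by identifier for 12612 of 12621 genes. Exons of 39 members overlap those of another gene, and strand use in counting is not stated. Upstream windows came from RefSeq.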

Additional observations from a re-analysis of the deposited data

How the results depend on the processing

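The 29 higher and 22 lower genes were recounted under 17 alternatives. With a filter at 5 in 2 libraries, which left 63 members, 16 were higher and 15 lower. Leaving out 1 library at a time gave 14 to 27 higher and 8 to 25 lower, lowest without a wild-type library, and leaving out both SE libraries gave 26 and 14. With the C or SE suffix as a replicate block the counts were 37 and 29; the suffix is not known to pair libraries, and the titles' numbers match no column. The other alternatives gave 25 to 33 higher and 20 to 23 lower. All tested genes were not recounted under the alternatives. Whether the members moved more between fits than other genes is therefore not known. No called gene changed direction in the fits it entered. Called genes under 1 in every knockout library entered no fit with a wild-type library left out. Of the calls, 27 held in each fit the gene entered; 21 of the 42 that could be fitted were lost without wild-type C1, 17 of 42 without wild-type SE, 6 of 48 without knockout C1, 8 of 50 without knockout C2 and none of 49 without knockout SE. Among genes not called, F2r ran from -0.27 to 0.0777 over these omissions, positive without knockout C2, and Adgra3 turned to 0.21 when wild-type SE was omitted (lowest -0.92). Adcy3 was -0.0772 in edgeR and -0.0363 in DESeq2, and ran from -0.92 (wild-type C1 omitted) to 1.002, negative also with knockout SE omitted (-0.45). The cause was not tested. Tnfaip6 stayed lower in each of the 16 alternatives it entered and passed the threshold in 4: quantile normalization, no variance trend, both SE libraries left out and the block. Of all 41 uncalled members, 15 changed sign and 15 were called in some fit, 5 of those with the block alone; for Adgra2 the block gave -2.26 (adjusted p = 0.000213). With 2 wild-type libraries, the spread rests on 3 degrees of freedom, and genes under 1 in a group rest on few reads.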
